A study of Sus scrofa with 6 samples.

Results

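Collagens are the proteins of the extracellular matrix whose alpha chains wind around each other in a long helix, and each collagen type is named by a number that its chains share. The 35 genes described here were all the genes of the deposited pig expression table whose Ensembl gene name is COL, a number, A and a number, out of 20131 genes in all. The rule used names alone and no measured value. They comprised 11 fibrillar chains, 3 type IV chains of basement membranes, 7 fibril-associated chains and 14 chains of other types. Of 45 mammalian chains in the curated classes, the remaining 10 (COL4A1, COL4A5, COL4A6, COL6A2, COL6A4, COL7A1, COL9A2, COL19A1, COL20A1 and COL26A1) are not analysed here.

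Bulk, strand-specific RNA sequencing after removal of ribosomal RNA was compared between 2 kinds of unmodified pig cell. The first was the pgEpiSC, a pluripotent stem cell kept in culture and taken from the epiblast, the layer that forms the embryo proper, at embryonic day 10 and before gastrulation (4 libraries). The second was the pEF, a cultured connective tissue cell of embryonic day 30 fetuses (2 libraries). No treatment or genetic change is named for either. The libraries are called biological replicates, but nothing ties them to separate animals, lines or cultures, so the p-values below measure only the spread between these samples, which may be technical. Cell type and developmental stage differ together between the groups and cannot be told apart.

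Values are in TPM, the level of a transcript per unit of its length, so that chains can be compared with each other within a library. The listed TPM summed to between 157288 and 320206 in pgEpiSC and to 93556 and 145611 in pEF, below the 1000000 of a complete table. pgEpiSC libraries 2 and 3 were both above libraries 1 and 4 for 94.4% of 11679 genes, and pEF library 2 was above library 1 for 6565 of 7097 genes. Results are therefore given as deposited and, where it matters, after median-ratio scaling, which divides each library by 1 factor set by the typical gene. TPM keeps no read depth, which was an average of 127.83 M raw reads per library, per the labels. Defining markers matched the labels. The summed level of 8 epiblast markers was 519 to 2044 TPM in pgEpiSC and 0.133 to 0.685 TPM in pEF, and that of 8 fibroblast markers was 2.34 to 7.68 TPM in pgEpiSC and 348 to 362 TPM in pEF.

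Fibrillar collagens (types I, II, III, V and XI among them) form the cross-striated fibres that give connective tissue its strength, and fibroblasts are a main source of types I, III and V. Type IV collagen forms the sheet-like network of basement membranes, and types XV and XVIII lie in the zone around it. Fibril-associated collagens do not build fibres alone but sit on the surface of others, as type IX does on the type II fibres of cartilage. A collagen molecule holds chains of 1 kind or of several, so some chains need a partner chain to form their usual molecule.

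The 35 collagen chains were a far smaller part of the listed TPM in pgEpiSC than in pEF, and a different mix. The 35 chains together held 0.0153%, 0.0237%, 0.0305% and 0.0162% of the listed TPM in the 4 pgEpiSC libraries, against 0.745% and 1.43% in the 2 of pEF. Every pgEpiSC library lay below both pEF libraries, with means of 0.0214% ± 0.00712 (SD, n = 4) and 1.09% ± 0.483 (SD, n = 2). In pEF most collagen TPM came from fibrillar chains (77.2% and 81.7%), whereas in pgEpiSC those chains gave 19.3%, 18%, 16.4% and 30.7%. Fibril-associated chains gave 34.0%, 32.1%, 39.1% and 36.5% of collagen TPM in pgEpiSC against 3.75% and 3.29% in pEF. The type IV chains gave 2.37% to 5.54% in pgEpiSC and 0.744% and 0.790% in pEF, and the other types 30.4% to 44.4% against 18.3% and 14.3%. All 11 curated fibrillar chains were analysed, but only 3 of 6 type IV, 7 of 10 fibril-associated and 14 of 18 other chains. The fibrillar shares are thus upper limits, and chains not analysed, such as COL4A1, could raise the share of their class.

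These 5 shares, and the number of chains at 1 TPM or more (5, 12, 8 and 6 in pgEpiSC, 16 and 16 in pEF), did not overlap between the groups. Each gave an exact two-sided permutation p of 0.0667, adjusted 0.0667 over the 6 measures, which is the smallest that the 15 splits of 4 libraries against 2 allow, so none can pass 0.05. Over all genes, 7149, 10250, 9892 and 7146 were at 1 TPM or more in pgEpiSC, and 7208 and 8699 in pEF. After median-ratio scaling the chains at that level were 7, 6, 7 and 7 in pgEpiSC and 16 and 16 in pEF. The share of the other types reversed when types XV and XVIII were counted with type IV as chains of the basement membrane zone: it was then 6.72% in pgEpiSC and 9.99% in pEF, and the share of the enlarged basement membrane class was 36.7% and 7.04%. The count of chains at 0.1 TPM or more was 20, 29, 27 and 19 in pgEpiSC and 18 and 21 in pEF: the mean was then higher in pgEpiSC, but the groups overlapped (exact permutation p = 0.333). In bulk RNA, fewer cells that express a chain and less RNA per cell cannot be told apart.

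**Figure D1:**
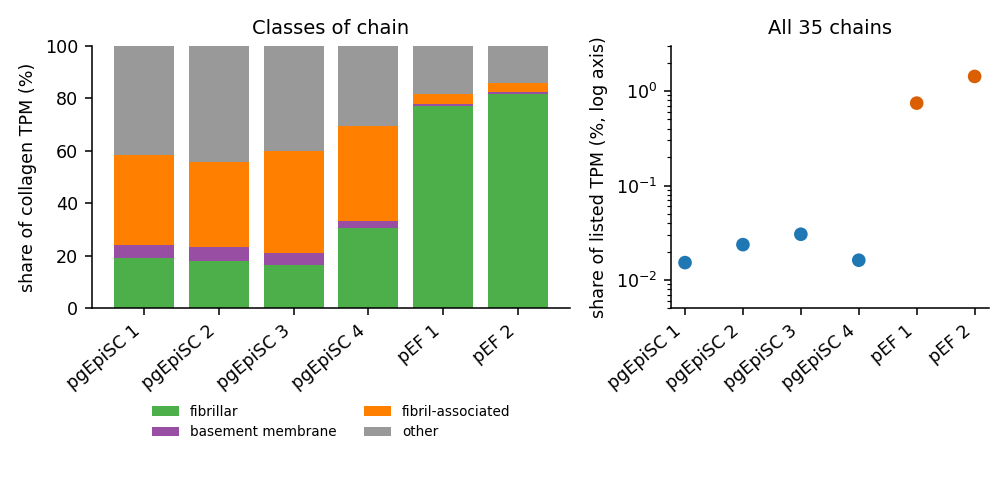
Left: the share of collagen TPM (%, of the 35 chains analysed) that each of 4 classes of chain gave in each library. Right: the share of listed TPM (%, log axis) held by all 35 chains. The fibrillar class held 16.4% to 30.7% in pgEpiSC and 77.2% and 81.7% in pEF, and all 4 pgEpiSC points lie below both pEF points in the right panel.

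A handful of chains made up each mix. COL9A1 and COL18A1 together gave 60.2%, 63.3%, 61.5% and 51.3% of collagen TPM in the pgEpiSC libraries, and 2.10% and 0.358% in pEF. COL1A2, COL3A1 and COL5A2, each a chain of a fibroblast fibre, gave 71.4% and 66.3% in pEF and 8.59%, 4.73%, 2.28% and 18.9% in pgEpiSC. pgEpiSC library 4 held the largest fibrillar share of its group. Without COL9A1 and COL18A1 the remaining 33 chains held 0.00607% to 0.0117% of the listed TPM in pgEpiSC, against 0.729% and 1.42% in pEF. In mean level 2 chains passed 10 TPM in pgEpiSC and 14 in pEF.

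Each chain was also read from a limma fit over all 10424 genes that reached 1 TPM in at least 2 libraries, on log2(TPM + 1), with Benjamini-Hochberg adjusted p below 0.05 as the threshold for a call. Fold changes below are pgEpiSC over pEF on that scale, which understates the change of chains at low levels. limma draws the variance of each gene towards a trend over all genes, so the size of a p-value depends on the setting. For COL3A1 the limma adjusted p was 6.76e-15 as deposited, 1.01e-06 after median-ratio scaling and 0.00141 with no filter on low genes. Of the 35 chains 18 could be tested: 14 fell, 2 rose and 2 were not called. Over all genes tested, 9.43% were called lower and 18% higher. The median log2 fold change of the 18 chains was -3.59, beside 0.48 for all genes tested. With scaled values 15 chains fell and 2 rose, where 30.9% of all genes were called lower and 27% higher, and the medians were -4.12 and 0.02. Scaling thus moved the background by almost as much as it moved the chains. Without pEF library 2, 9 of the 18 chains fell and 5.32% of all genes were called lower; after scaling 16 chains fell without it, beside 26.3% of all genes.

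The filter itself bears on these counts. Among the tested chains 8 passed through both groups, and of these 6 fell and 2 were not called. A further 8 reached 1 TPM in 2 libraries only through pEF, and all 8 fell. The 2 that passed through pgEpiSC alone, COL9A1 and COL21A1, were the 2 that rose. The 17 chains below the filter were not tested. Over all 35 chains, the groups did not overlap in 23: pgEpiSC was lower in 15 and higher in 8. Over all listed genes the same held for 9.92% (lower) and 31.5% (higher). The 8 higher chains, 22.9% of 35, were thus no larger a share than in the table as a whole.

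**Figure D2:**
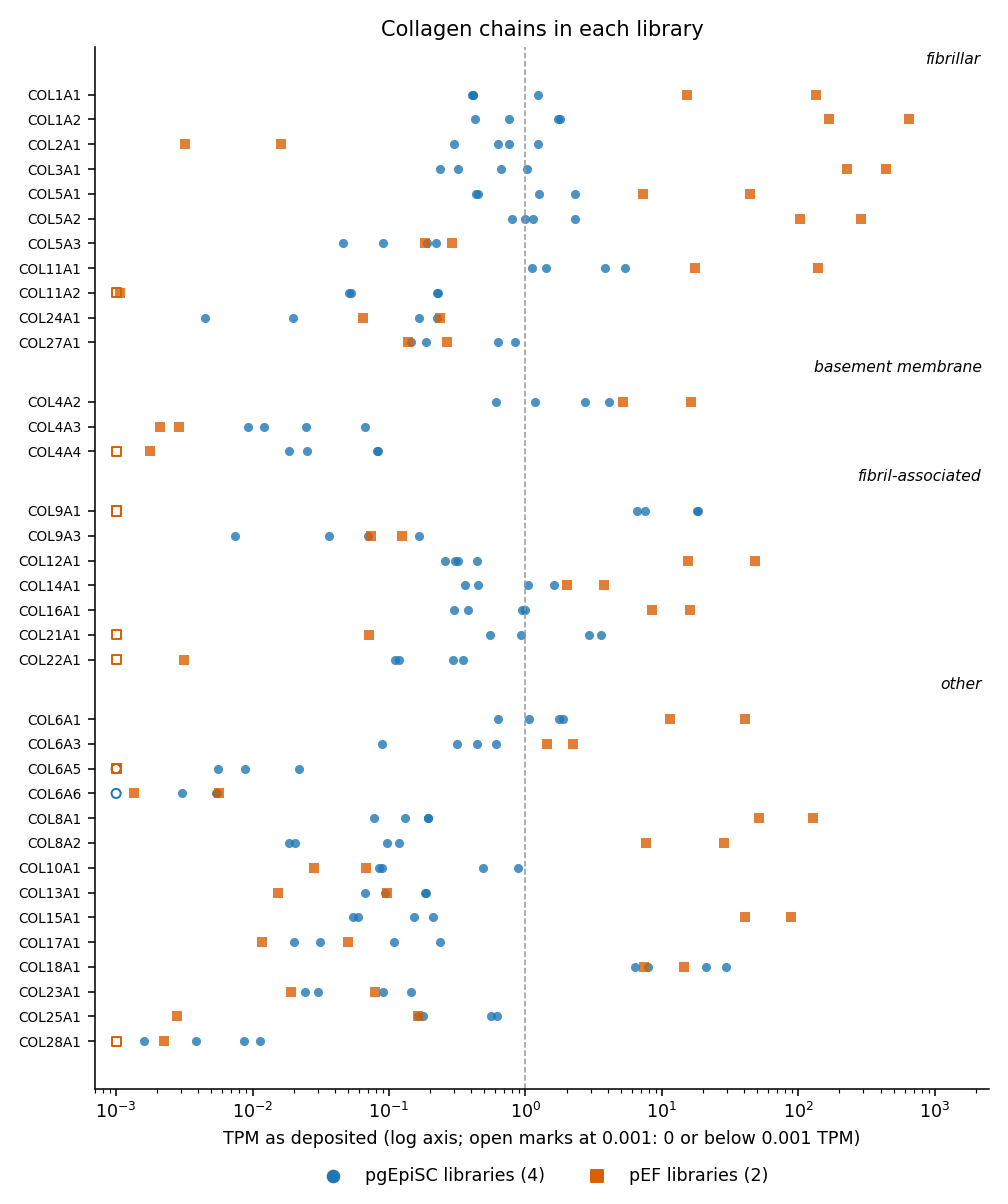
TPM as deposited (log axis) of all 35 chains, grouped by class, with a circle for each of 4 pgEpiSC libraries and a square for each of 2 pEF libraries; open marks at 0.001 stand for values of 0 or below 0.001 TPM, and the dashed line is at 1 TPM. The pEF squares of COL1A2, COL3A1, COL5A2, COL8A1 and COL15A1 lie far right of the circles, those of COL9A1 lie at the left edge, and the 2 groups interleave for COL18A1.

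All 6 fibrillar chains that could be tested fell in pgEpiSC, beside 9.43% of all genes tested. Their median log2 fold change was -5.58, and COL1A1 and COL3A1 passed the filter through pEF alone. COL1A2, the second chain of type I collagen, the main fibre of skin, bone and tendon, stood at 0.757, 1.78, 0.426 and 1.73 TPM in pgEpiSC (libraries 1 to 4, here and below), against 167 and 651 TPM in pEF (libraries 1 and 2). COL1A1, its partner and the chain that type I needs most, stood at 0.413, 1.23, 0.416 and 0.404 TPM in pgEpiSC, against 15.3 and 134 TPM in pEF. Neither gene's groups overlapped, yet the pEF libraries differed from each other more for COL1A1 than for COL1A2. The log2 fold changes were -7.31 ± 0.56 (SE) for COL1A2 (limma adjusted p = 8.37e-14) and -4.89 ± 0.62 for COL1A1 (limma adjusted p = 6.06e-08).

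COL3A1, the only chain of type III collagen, which runs with type I in elastic and soft tissues, stood at 0.319, 0.665, 0.237 and 1.02 TPM in pgEpiSC, against 228 and 441 TPM in pEF. COL5A2, a chain of type V collagen, which helps start fibres and sets their width, stood at 0.986, 1.14, 0.791 and 2.33 TPM in pgEpiSC, against 102 and 287 TPM in pEF. For both genes, neighbours in the RefSeq annotation of Sscrofa11.1, pgEpiSC library 4 was the highest of its group yet far below either pEF library. Their log2 fold changes were -7.70 ± 0.54 and -6.26 ± 0.55 (SE; limma adjusted p = 6.76e-15 and 4.15e-12).

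COL5A1, the other main chain of type V, stood at 0.437, 2.33, 1.26 and 0.446 TPM in pgEpiSC, against 7.27 and 44.3 TPM in pEF. COL11A1, a chain of type XI, which forms fibres with type V in many tissues and with type II in cartilage, stood at 1.13, 3.82, 5.32 and 1.41 TPM in pgEpiSC, against 17.5 and 139 TPM in pEF. COL11A1 was the fibrillar chain with the highest mean level in pgEpiSC, at 1 TPM or more in all 4 libraries. Their log2 fold changes were -3.28 ± 0.61 and -3.85 ± 0.62 (SE; limma adjusted p = 6.26e-05 and 6.11e-06). Both calls were lost without pEF library 2, where the log2 fold changes were -2.06 and -2.39. After median-ratio scaling both held without that library (-3.0 and -3.40).

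Type II collagen, the main fibre of cartilage, is made of COL2A1 alone, which ran the other way from the fibroblast fibres. COL2A1 stood at 0.298, 1.24, 0.755 and 0.626 TPM in pgEpiSC, against 0.00319 and 0.0160 TPM in pEF. All 4 pgEpiSC libraries lay above both pEF libraries, but only 1 of them reached 1 TPM, so the gene was not tested. COL11A2, the cartilage partner of COL11A1, also did not overlap, at 0.0508 to 0.229 TPM in pgEpiSC and 0 and 0.00106 TPM in pEF. The remaining fibrillar chains, COL5A3, COL24A1 and COL27A1, overlapped between the groups as deposited and never passed 0.836 TPM. After scaling COL5A3 did not overlap, at 0.0663 to 0.126 TPM in pgEpiSC and 0.323 and 0.308 TPM in pEF.

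The basement membrane class rested on a single measurable chain. COL4A2, the partner of COL4A1 in the form of type IV collagen found in nearly every basement membrane, stood at 1.17, 4.09, 2.73 and 0.611 TPM in pgEpiSC, against 5.18 and 16.4 TPM in pEF. It fell by 1.86 ± 0.59 (SE) on the log2 scale in pgEpiSC (limma adjusted p = 0.0162), the smallest fall among the chains that passed the filter through both groups and were called. The call was lost without either pEF library (-2.61 without library 1 and -1.12 without library 2) and with no filter on low genes (limma adjusted p = 0.135), and held without either pEF library after scaling (-3.0 and -2.05). As a share of collagen TPM COL4A2 ran the other way, at 4.87%, 5.40%, 4.28% and 2.27% in pgEpiSC and 0.744% and 0.790% in pEF.

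COL4A3 and COL4A4, chains of the type IV network of kidney, lung and inner ear, are neighbours in the same annotation and were both near 0. They reached at most 0.0668 and 0.0834 TPM in pgEpiSC, and 0.00290 and 0.00176 TPM in pEF. The groups did not overlap for either, but all values were too low to test.

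Both chains that rose in pgEpiSC, COL9A1 and COL21A1, were fibril-associated, and they were also the only tested chains that passed the filter through pgEpiSC alone. The 6 untested chains that were higher without overlap lay in all 4 classes (COL2A1, COL11A2, COL4A3, COL4A4, COL22A1 and COL10A1). COL9A1 (ENSSSCG00000004274), a chain of type IX collagen, stood at 6.54, 18.5, 18.2 and 7.47 TPM in pgEpiSC and was listed at 0 in both pEF libraries. It ranked between 1465 and 2230 among all genes in pgEpiSC, and its share of collagen TPM there was nearly constant, at 27.2%, 24.4%, 28.5% and 27.8%. Its log2 fold change was 3.64 ± 0.57 (SE; limma adjusted p = 4.26e-06). Scaled to the typical gene, the 4 pgEpiSC values came to 9.38, 8.59, 11.3 and 10.4 TPM, so the difference between libraries 2 and 3 and libraries 1 and 4 in the deposited values was one that COL9A1 shared with most genes.

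The partners of COL9A1 were not at a like level. COL9A3, another chain of the type IX molecule, stood at 0.00738, 0.167, 0.0696 and 0.0361 TPM in pgEpiSC, against 0.0733 and 0.124 TPM in pEF. The groups overlapped as deposited, while after scaling pgEpiSC was lower in all libraries (0.0106 to 0.0777 TPM against 0.129 and 0.131 TPM). In pgEpiSC library 2, where both chains passed 0.1 TPM, COL9A1 was 110-fold above COL9A3. COL2A1, the fibre that type IX coats in cartilage, was at 1.24 TPM or less, as given above. Of 8 chondrocyte markers 2 reached 1 TPM in any library, MATN3 (at most 2.37 TPM) and ACAN (at most 1.86 TPM), both in pgEpiSC. The summed level of the 8 was 1.29 to 7.12 TPM in pgEpiSC and 1.08 and 1.32 TPM in pEF. SOX9, the transcription factor that defines chondrocytes and drives COL2A1 and COL9A1 in them, was at 0.128 to 0.663 TPM in pgEpiSC and 0.149 and 0.154 TPM in pEF. Of the other cartilage regulators SOX5 stayed at or below 0.447 TPM and SOX6, which passed the filter through pEF alone, fell in pgEpiSC (log2 fold change -1.60, limma adjusted p = 0.000321).

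COL21A1, a fibril-associated chain of vessel walls and other tissues, stood at 0.549, 2.93, 3.58 and 0.933 TPM in pgEpiSC, against 0.0713 and 0 TPM in pEF. The groups did not overlap, and its log2 fold change was 1.39 ± 0.44 (SE; limma adjusted p = 0.0162). The call was lost without pgEpiSC library 3 (1.14), without pEF library 1 (1.44) and without pEF library 2 (1.34), and held in each case after scaling (0.94, 1.33 and 1.07). As deposited, it was also lost with a pseudocount of 5 (limma adjusted p = 0.0851), with no filter (limma adjusted p = 0.176) and with no variance trend (limma adjusted p = 0.0541). COL22A1, a chain of tissue junctions, showed the same order at a lower level, with 0.110 to 0.346 TPM in pgEpiSC and 0 and 0.00316 TPM in pEF.

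The other 3 fibril-associated chains tested were lower in pgEpiSC than in both pEF libraries. Of these, COL12A1 and COL16A1 passed the filter through pEF alone, and COL14A1 through both groups. COL12A1, which coats type I fibres in tendon, skin and muscle, stood at 0.304, 0.319, 0.256 and 0.445 TPM in pgEpiSC, against 15.6 and 48.5 TPM in pEF (log2 fold change -4.43 ± 0.56 (SE), limma adjusted p = 6.04e-08). COL16A1, found near fibres and microfibrils of skin and cartilage, stood at 0.298, 0.998, 0.951 and 0.379 TPM in pgEpiSC, against 8.43 and 16.1 TPM in pEF (-2.97 ± 0.54, limma adjusted p = 4.91e-05). COL14A1, a relative of COL12A1, stood at 0.362, 1.05, 1.61 and 0.447 TPM in pgEpiSC, against 2.01 and 3.73 TPM in pEF. Its groups did not overlap, yet it was not called as deposited (-1.07 ± 0.47, limma adjusted p = 0.0843). It was called after scaling (-1.53, limma adjusted p = 0.000104).

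**Figure D3:**
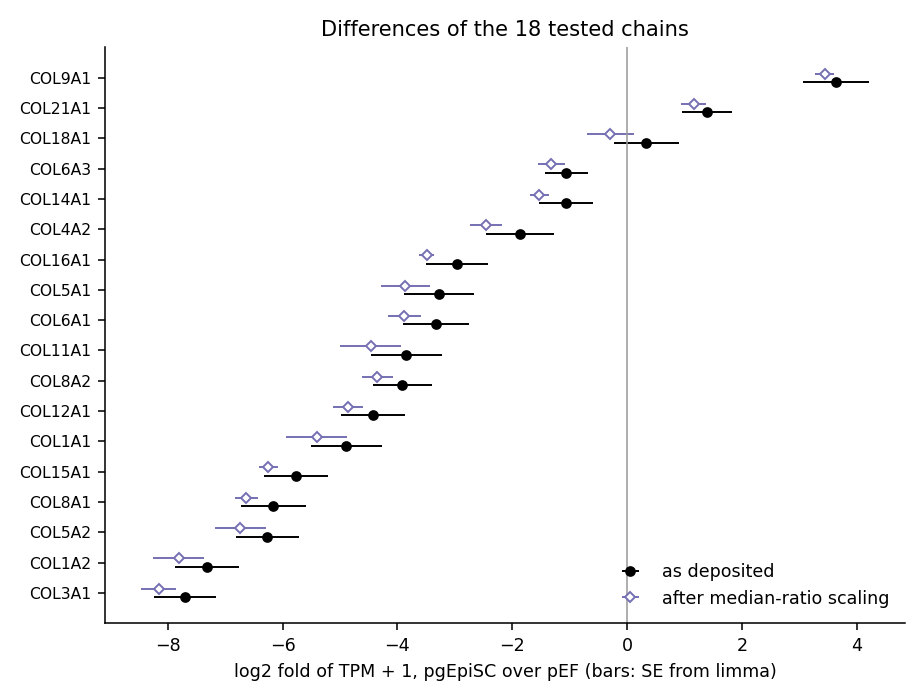
log2 fold change of TPM + 1, pgEpiSC over pEF, with bars for the standard error from limma, for the 18 chains tested, as deposited (filled) and after median-ratio scaling (open), ordered by fold change; the vertical line is at 0. Of the 18 chains 15 lie left of 0 on both scales, COL9A1 and COL21A1 lie right of it, and COL18A1 changes sides.

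Among the other types, 5 of 6 tested chains fell, beside 9.43% of all genes tested. Of the 5, COL6A3, COL8A1, COL8A2 and COL15A1 passed the filter through pEF alone, and COL6A1 through both groups. COL8A1 and COL8A2 form type VIII collagen, a short-chain network of vessel walls and of the membrane under the corneal endothelium. COL8A1 stood at 0.132, 0.194, 0.193 and 0.0773 TPM in pgEpiSC, against 51.1 and 129 TPM in pEF, a 604-fold ratio of group means. COL8A2 stood at 0.0184, 0.118, 0.0963 and 0.0206 TPM in pgEpiSC, against 7.68 and 28.6 TPM in pEF. Both were clearly separated, with log2 fold changes of -6.16 ± 0.56 and -3.91 ± 0.52 (SE; limma adjusted p = 1.36e-11 and 1.32e-07).

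COL15A1 and COL18A1 are sister genes: each encodes a collagen and proteoglycan of the basement membrane zone whose end can be cut off, the COL18A1 fragment being endostatin. COL15A1 stood at 0.0549, 0.211, 0.152 and 0.0595 TPM in pgEpiSC, against 40.8 and 88.1 TPM in pEF. COL18A1 (ENSSSCG00000038089) stood at 7.93, 29.5, 21.0 and 6.35 TPM in pgEpiSC, against 14.6 and 7.45 TPM in pEF. The sisters thus differed: COL15A1 did not overlap between the groups and fell by 5.77 ± 0.56 (SE) on the log2 scale (limma adjusted p = 6.15e-11), whereas COL18A1 overlapped. The difference between the 2 genes' fold changes was not tested.

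COL18A1 had the highest mean level of any chain in pgEpiSC, 16.2 TPM ± 11.0 (SD, n = 4), followed by COL9A1 with 12.7 ± 6.54, and the order of the 2 was not the same in every library. Its log2 fold change was 0.34 ± 0.56 (SE; limma adjusted p = 0.688), and its sign depended on the scale: it was -0.29 after median-ratio scaling (limma adjusted p = 0.564). Without pEF library 2 and with scaling it was called lower (-1.12, limma adjusted p = 0.0316). No direction can be given for it. It was also the only chain at 1 TPM or more in both pEF libraries that was lower in library 2 than in library 1.

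Type VI collagen forms beaded microfilaments around cells from several different chains, of which COL6A1 and COL6A3 reached 1 TPM here. COL6A1 stood at 1.06, 1.89, 1.78 and 0.628 TPM in pgEpiSC, against 11.5 and 40.8 TPM in pEF. COL6A3 stood at 0.444, 0.313, 0.0881 and 0.612 TPM in pgEpiSC, against 1.45 and 2.22 TPM in pEF. Neither overlapped, and both fell, by 3.33 ± 0.58 (limma adjusted p = 2.33e-05) and by 1.06 ± 0.37 (SE; limma adjusted p = 0.0293) on the log2 scale. The call of COL6A1 was lost without pEF library 2 (-2.46), and that of COL6A3 without pEF library 2 (-0.86), without pgEpiSC library 3 (-0.95), with no filter (limma adjusted p = 0.081), with no variance trend (limma adjusted p = 0.097) and with the replicate number as a block (-1.03), a fit that called 13 chains and 8.57% of all genes lower. In scaled values the calls held without those libraries and with the block (COL6A1 -3.39 without pEF library 2; COL6A3 -1.39, -1.13 and -1.33).

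The 8 other types that never reached 1 TPM were COL6A5, COL6A6, COL10A1, COL13A1, COL17A1, COL23A1, COL25A1 and COL28A1. COL10A1, the collagen of cartilage that is turning to bone, was the highest of them, at 0.0890, 0.490, 0.876 and 0.0841 TPM in pgEpiSC and 0.0281 and 0.0684 TPM in pEF. It was the only one of the 8 whose groups did not overlap as deposited. After scaling COL25A1 did not overlap either, at 0.233 to 0.382 TPM in pgEpiSC and 0.00494 and 0.174 TPM in pEF. COL17A1, which anchors stratified epithelium to its basement membrane, reached 0.238 TPM, and TP63, a marker of that epithelium, at most 0.0696 TPM.

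Chains that share a molecule were not at equal levels. In pEF, COL1A1 was 0.0913 and 0.206 of COL1A2 in libraries 1 and 2, and COL5A1 was 0.0710 and 0.154 of COL5A2. COL6A1 was 7.93 and 18.4 times COL6A3, and COL8A1 was 6.66 and 4.51 times COL8A2. The mean log2 ratios of these 4 pairs in pEF were -2.87 ± 0.83, -3.26 ± 0.79, 3.59 ± 0.86 and 2.45 ± 0.40 (SD, n = 2). For type I this is opposite to the make-up of the common protein, which holds more COL1A1 than COL1A2 chains, and levels of mature protein were not measured. A ratio of TPM between chains also depends on the transcript lengths in the annotation used, which is not given here.

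At 1 TPM as the minimum for both chains, no ratio had a value in all 6 libraries and none was tested. At 0.1 TPM, COL1A1 was 0.546, 0.689, 0.975 and 0.233 of COL1A2 in pgEpiSC, all above both pEF values (difference of mean log2 ratios 1.98, exact permutation p = 0.0667, adjusted 0.133 over the 2 ratios tested). COL5A1 was 0.443, 2.05, 1.59 and 0.192 of COL5A2 in pgEpiSC, also above both pEF values (difference 2.79, exact permutation p = 0.133, adjusted 0.133). In both ratios pgEpiSC library 4 was the one nearest to pEF. Most of these pgEpiSC levels were under 2 TPM, where a ratio is imprecise to an unknown degree.

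The 2 pEF libraries differed more in the collagens than in most other genes. Over 7097 genes at 1 TPM or more in both, library 2 was above library 1 by a median ratio of 1.60 (quartiles 1.34 and 1.92). Over the 16 chains at that level the median ratio was 2.96, and 15 were above 1. COL1A1 was 8.78-fold higher in library 2, COL11A1 7.92-fold and COL5A1 6.09-fold, each above at least 99.6% of all genes. COL1A2 was 3.89-fold higher, COL3A1 1.94-fold and COL6A3 1.53-fold, while COL18A1 was at 0.510 of its library 1 level. The ratios of the 8 fibroblast markers ran from 0.715 (LUM) to 1.92 (PRRX1), with 5 above 1 and 2 (PRRX1 and FAP) above the median of all genes, beside 14 of the 16 chains. DES, a muscle filament gene, went from 24.5 to 204 TPM between the libraries, a ratio of 8.34, and was at 0.793 to 2.30 TPM in pgEpiSC. It made up nearly all of the summed level of 4 skeletal muscle markers (24.8 and 208 TPM in pEF, 1.01 to 2.43 TPM in pgEpiSC). The muscle-defining factors were also higher in pEF library 2 than in library 1: MYF5 at 0.234 and 3.06 TPM, MYOG at 0.0238 and 0.549 TPM, and MYOD1 at 0 and 0.437 TPM. Of these only MYF5 in library 2 reached 1 TPM. The part of muscle cells in the collagen difference was not tested.

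**Figure D4:**
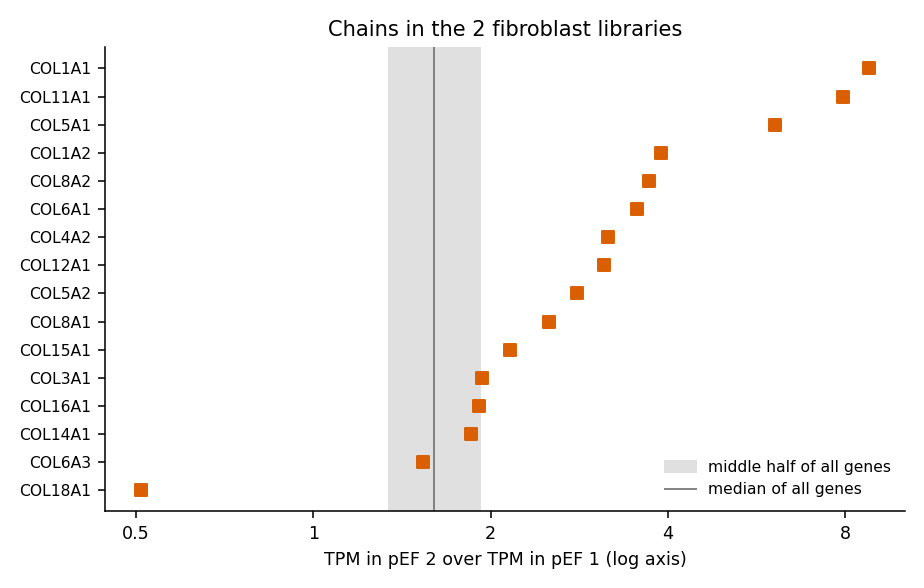
TPM in pEF library 2 over TPM in pEF library 1 (log axis) for the 16 collagen chains at 1 TPM or more in both; the line is the median of all 7097 such genes and the shaded band runs between their quartiles. COL1A1, COL11A1 and COL5A1 lie farthest right, and COL18A1 is the one chain below 1.

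Within pgEpiSC most chains followed the order of most genes, and a few did not. Of 18 chains at 0.1 TPM or more in all 4 libraries, 14 (77.8%) had libraries 2 and 3 both above 1 and 4, COL1A1, COL5A1 and COL11A1 among them, beside 94.4% of all such genes. The 4 exceptions were COL1A2, COL3A1, COL5A2 and COL12A1, picked out here for that. As deposited, library 4 was the highest of its group for 4 of the 15 chains that were lower in pgEpiSC (COL3A1, COL5A2, COL12A1 and COL6A3), beside 1.56% of all genes tested. After scaling it was highest for 5 of the 15, with COL1A2 added, beside 25% of all genes, a share near that background.

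Scaled to the typical gene, library 4 stood between 0.501 (COL4A2) and 6.11 (COL5A2) times the median of libraries 1 to 3 over the 15 chains, with a median of 1.10, and was above it in 8. Over the 8 fibroblast markers the same ratio ran from 0.708 (S100A4) to 14.5 (LUM), with a median of 3.62, and was above 1 in 7. It was 1.87 for PDGFRB, 3.01 for FAP, 3.14 for PDGFRA, 4.10 for PRRX1, 10.03 for DCN and 11.1 for POSTN. This ratio was not computed for all genes. Library 4 was the highest for 5 of the 8 markers, beside 25% of all genes tested. PDGFRA was highest in library 1, and PDGFRB and S100A4 in library 2. DCN stood at 1.23, 0.256, 0.249 and 2.57 TPM in scaled values and LUM at 0.678, 0.0640, 0.0930 and 1.35 TPM, so library 1 was next for both. COL1A2 stood at 1.09, 0.828, 0.265 and 2.40 TPM in scaled values and COL5A2 at 1.42, 0.528, 0.491 and 3.22 TPM, with library 4 highest and library 1 next. The part of fibroblasts or other differentiated cells in these levels was not tested. All 14 calls of lower chains held without pgEpiSC library 4 (7.63% of all genes were then called lower), and COL9A1 and COL21A1 were called higher without it.

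**Figure D5:**
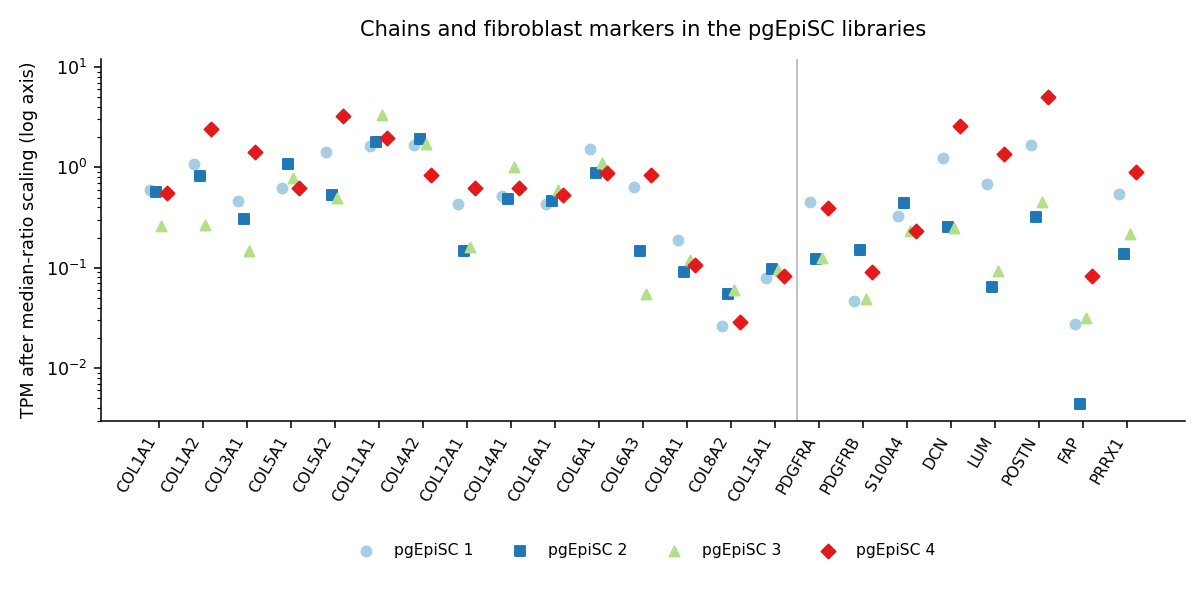
TPM after median-ratio scaling (log axis) in each of the 4 pgEpiSC libraries, for the 15 chains that were lower in pgEpiSC with no overlap (left of the line) and the 8 fibroblast markers (right). Library 4 is the highest point for 5 of the 15 chains and 5 of the 8 markers.

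Genes that process collagen fell with it in part. Of 24 tested genes of collagen synthesis, folding and cross-linking (29 in the table), 14 fell, 1 rose and 9 were not called. Their median log2 fold change was -1.56, beside 0.48 for all genes tested, of which 9.43% were called lower and 18% higher. After scaling 21 fell and 1 rose, beside 30.9% and 27% of all genes. Of the 14, 10 passed the filter through both groups, where another 9 genes were not called, and 4 through pEF alone (P4HA3, PCOLCE, ADAMTS2 and LOXL3), where all fell. The largest falls were those of P4HA3 (-4.28 ± 0.52, SE) and P4HA1 (-2.93 ± 0.56), catalytic chains of prolyl 4-hydroxylase, which stabilises the helix, and of LOX (-3.51 ± 0.57) and LOXL1 (-3.19 ± 0.56), which start its cross-links. P4HA3 stood at 0.0284 to 0.169 TPM in pgEpiSC, against 17.2 and 23.8 TPM in pEF. The exception was TLL1, a protease that trims procollagen ends, which passed the filter through pgEpiSC alone, at 1.64, 3.45, 2.72 and 1.46 TPM in pgEpiSC and 0.213 and 0.126 TPM in pEF (1.46 ± 0.46, limma adjusted p = 0.0157).

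Collagen receptors were mostly lower as well. Of 7 tested, 5 fell and 2 were not called, beside 9.43% of all genes called lower. The median log2 fold change of the 7 was -2.53, beside 0.48 for all genes tested. Of the 5, ITGA1, ITGA11 and MRC2 passed the filter through pEF alone, and DDR2 and ITGB1 through both groups. The falls were led by ITGA1 (-3.38 ± 0.46, SE) and ITGA11 (-2.68 ± 0.52), integrin chains that bind collagen, DDR2 (-2.85 ± 0.57), a receptor kinase for fibrillar collagen, and MRC2 (-2.53 ± 0.55), which takes collagen up into the cell. The scaled fit added DDR1, a receptor kinase of epithelial cells, as higher in pgEpiSC (0.88, limma adjusted p = 0.0106; 1.40 and 0.0704 as deposited).

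Basement membrane partners were mixed. Of 11 tested, 3 fell, 1 rose and 7 were not called, beside 9.43% of all genes called lower and 18% higher. The median log2 fold change of the 11 was -0.89, beside 0.48 for all genes tested. After scaling 7 fell and 1 rose, beside 30.9% and 27% of all genes. LAMA4 (-4.03 ± 0.56, SE), NID2 (-2.35 ± 0.45) and LAMB2 (-1.29 ± 0.49) fell, of which NID2 passed the filter through pEF alone. LAMA1, the one that rose, passed through pgEpiSC alone. LAMA1, the laminin chain of the early embryo's basement membranes, stood at 0.494, 3.30, 4.06 and 0.526 TPM in pgEpiSC, against 0.00815 and 0.0391 TPM in pEF, with no overlap (1.37 ± 0.45, limma adjusted p = 0.0208). Of 6 markers of hypoblast and parietal endoderm, embryonic layers rich in basement membrane, 4 had values. FOXA2 alone reached 1 TPM, at 1.47 to 3.73 TPM in pgEpiSC against 0.00687 and 0.00357 TPM in pEF. It passed the filter through pgEpiSC alone and was called higher (log2 fold change 1.84, limma adjusted p = 0.00286). Of 5 endothelial markers only TIE1 reached 1 TPM (1.01 TPM in pgEpiSC), and 2 notochord markers stayed at or below 0.519 TPM.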

How the data were processed

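RNA was sequenced from 4 pgEpiSC and 2 pEF libraries (150-bp paired-end reads, per the labels). The authors deposited a gene table in TPM; STAR 2.6.0c and kallisto 0.44.0 are named per the submitters' processing notes, and what each did, with which build and annotation, is not given in the sources used here. Rows of 1 symbol were summed, giving 20131 genes. Genes at 1 TPM or more in at least 2 libraries (10424) were fitted as log2(TPM + 1) with limma 3.58.1 in R 4.3.3, with a variance trend, group as the only term, and Benjamini-Hochberg adjustment over all genes. A gene was called at an adjusted p below 0.05. The script was tested on simulated data. Library measures were compared by exact permutation over 15 splits. Median-ratio scaling used the 14121 genes above 0 in all 6 libraries. Classes follow standard collagen nomenclature.

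Every chain is accounted for, those at 1 TPM or more in any library with their values; from each partner list up to 4 called genes by size of change, and those called against the majority, are named. The collagen chains, the gene and marker lists and the tests were chosen with earlier results of these data known. Alternatives were other pseudocounts (0.1 and 5), filters, scalings and variance settings, a replicate block, and each library left out; fits of scaled values with libraries left out were added after seeing the data. TPM carries no counts, so no counting interval is given. Figures were drawn with matplotlib 3.10.9.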

Additional observations from a re-analysis of the deposited data

Results flagged for a closer look

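COL1A1 in pgEpiSC was the one chain with a library standing apart from the other 3: library 2 was at 1.23 TPM and the others at 0.404 to 0.416 TPM, so that the gap was 0.985 of the whole range, above Dixon's 95% critical value for 4 samples. Of 25 groups of values examined, 1 passed this limit, and chance gives about 1 in 20. After median-ratio scaling the 4 values were 0.593, 0.571, 0.258 and 0.559 TPM, and library 3 was then the lowest. The cause was not tested.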

How the results depend on the processing

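The number called higher, 2 as reported, was 1 (COL9A1) with a pseudocount of 5 (9.28% of all genes), with no filter (4.15%), with a mean TPM of at least 5 (28.7%) and with no variance trend (15.7%). The number lower, 14, was then 14, 12, 12 and 13 (8.45%, 4.61%, 8.91% and 8.61% of all genes): COL4A2 and COL6A3 were lost with no filter, COL6A3 with no trend, and 4 chains could not be tested at a mean of 5 TPM. Leaving out 1 library in turn gave 1 to 2 higher and 9 to 15 lower, beside 2.42% to 21.8% and 5.32% to 13.1% of all genes, the lowest without pEF library 2. The share of other types changed from 22.8 to -3.26 percentage points (pgEpiSC minus pEF) with types XV and XVIII moved, and the difference in chains detected from -8.25 to 4.25 with a 0.1 TPM limit (exact permutation p = 0.333).

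COL18A1, 0.34 as reported, turned negative in log2 fold with median-ratio scaling (-0.29), rescaling to 1000000 (-0.45), quantile normalization (-0.0527), without pgEpiSC library 2 (-0.02) and without pEF library 2 (-0.11), and over all libraries left out in turn ran from -0.11 to 0.78. With median-ratio scaling it was also negative with the replicate block (-0.19), without pgEpiSC libraries 1 to 4 in turn (-0.28, -0.36, -0.34 and -0.17) and without pEF library 2 (-1.12). The causes were not tested.

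The groups share replicate numbers 1 and 2. Same-numbered libraries had deviations correlated at 0.0982 and 0.172 across genes, beside 0.142 for pgEpiSC library 4 with pEF library 1, whose numbers differ. With 2 pEF libraries their deviations mirror each other, so these values cannot decide whether libraries were paired. The labels give a number alone. With the replicate block 2 chains were higher and 13 lower (without COL6A3), beside 21.1% and 8.57% of all genes. With 2 pEF libraries the spread of that group is poorly known, and where 1 was left out the lone library was assumed to vary like pgEpiSC. TPM gives no depth, so the precision of chains below 1 TPM is unknown.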
